A study of Homo sapiens with 6 samples.

Results

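The core histone cluster genes encode H2A, H2B, H3 and H4, the proteins around which DNA is wrapped in the nucleosome. Members were the genes whose symbol begins with H2AC, H2BC, H3C or H4C followed by a number in the platform annotation, read only from probe sets annotated with a single symbol. The rule found 56 genes among the 18132 genes measured, of which 15 were H2A, 19 H2B, 10 H3 and 12 H4 genes. By its symbol H2BC20P is a pseudogene, and it was kept because the rule takes it. The 56 genes had 99 such probe sets, and each gene was represented by the probe set with the highest mean over the 6 arrays. A further 9 probe sets carried several symbols, and 8 core histone symbols occurred only there, so these genes are not reported.

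Gene expression was compared in DLD1 cells, an established human colorectal cancer line, after infection with lentivirus that expressed either an shRNA against the kinase gene CDKL1 or a control shRNA. Each group held 3 samples of this line, and the label names RPMI1640 with 10% serum as the culture medium for both groups. Neither the hairpin sequences nor the time after infection are given in the sources used here, and no uninfected sample entered the comparison. Values are log2 expression values from Affymetrix arrays, so a difference of 1 is a 2-fold change.

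Most core histone genes are replication-dependent: they are transcribed in S phase, when new DNA must be packaged, from clusters in which many gene copies encode almost the same protein. Their usual mRNA ends in a stem-loop bound by SLBP instead of a poly(A) tail, although some of these genes, H2BC12, H2BC5 and H2AC6 among them, are also known to make polyadenylated transcripts. The standard Affymetrix protocol named in the labels primes cDNA from the poly(A) tail, so the arrays read mainly transcripts with such a tail, and the share of tailed transcripts was not measured. Because the coding sequences are near-identical, a probe set can also take signal from other copies, above all one with the suffix _s_at or _x_at, which the manufacturer uses for probes that match several transcripts.

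The samples were checked before the histone genes were read. Array medians lay between 6.64 and 6.70. CDKL1, read at a level near the background controls, was 4.51, 4.42 and 4.17 in the control arrays and 4.25, 4.20 and 4.08 in the CDKL1 shRNA arrays, a log2 change of -0.19 (95% interval -0.41 to 0.03; limma, adjusted p = 0.219), so this probe set gives no check of the knockdown. Without control replicate 3 its change was -0.29 and passed the test. All 12 colon epithelium markers were above the background controls, and 3 of them passed the limma test: KRT20 and CLDN3 rose by 0.52 and 0.33, and VIL1 changed by -0.57. EPCAM was at 13.5 in both groups. Of the other lists, 3 of 6 fibroblast, 2 of 5 leukocyte and 1 of 4 endothelium markers were at or below these controls, those with 10 to 16 G or C bases. The leukocyte antigen gene PTPRC was at 3.62 and 3.49. Levels did not separate all markers, since VWF at 6.75 and PDGFRB at 6.28 in control arrays lay above CDX1 (6.23), VIL1 (5.85) and LGALS4 (5.36). By limma, 0 genes of the fibroblast, leukocyte and endothelium lists passed, also 0 before adjustment at p under 0.05. Their summed linear levels were 223 to 238 in control and 210 to 245 in CDKL1 shRNA arrays for fibroblast markers. The corresponding sums were 148 to 153 and 136 to 152 for leukocyte markers, and 260 to 278 and 255 to 269 for endothelium markers. As a sign of RNA quality, the excess of the 3' over the 5' control probe set of ACTB averaged 1.40 on the log2 scale with control shRNA (SD 0.013, n = 3) and 1.60 with CDKL1 shRNA (SD 0.115, n = 3). The groups did not overlap, and the difference of 0.198 had an exact two-sided permutation p = 0.1, the smallest that 3 against 3 allow. The highest of the 6 values, 1.73, belonged to replicate 2 of CDKL1 shRNA. For GAPDH the same excess was 0.203 (SD 0.018) and 0.275 (SD 0.0262), again without overlap, with a difference of 0.0722 and the same exact p = 0.1.

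A minority of the core histone genes differed between the groups, and they moved in both directions. In CDKL1 shRNA arrays 9 of the 56 genes rose (H2BC4, H2AC6, H2BC21, H2AC20, H3C4, H2BC12, H2AC11, H2BC5 and H4C8) and 5 fell (H2AC17, H2AC15, H4C7, H2AC1 and H3C2), at an adjusted p under 0.05 over all genes (limma, Benjamini-Hochberg). The rises were 16.1% of the members, where 8.97% of all genes rose, and the falls were 8.93%, where 7.79% of all genes fell. In either direction 16.8% of all genes passed. At a fold of at least 1.5 the counts were 5 higher (0.689% of all genes) and 1 lower (0.513% of all genes). Over all 56 members the median log2 change was -0.05, beside -0.01 over all genes, with 23 positive and 33 negative values. The 19 members at or below the highest background control held 3 positive and 16 negative values, with a median of -0.10. Above it lay 37 members, with 20 positive and 17 negative values and a median of 0.02. This split by level was not tested. The groups did not overlap for 10 members in each direction, 17.9% either way, beside 18.1% of all genes higher and 17.6% lower. The share of members whose groups did not overlap was thus near that of all genes.

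**Figure D1:**
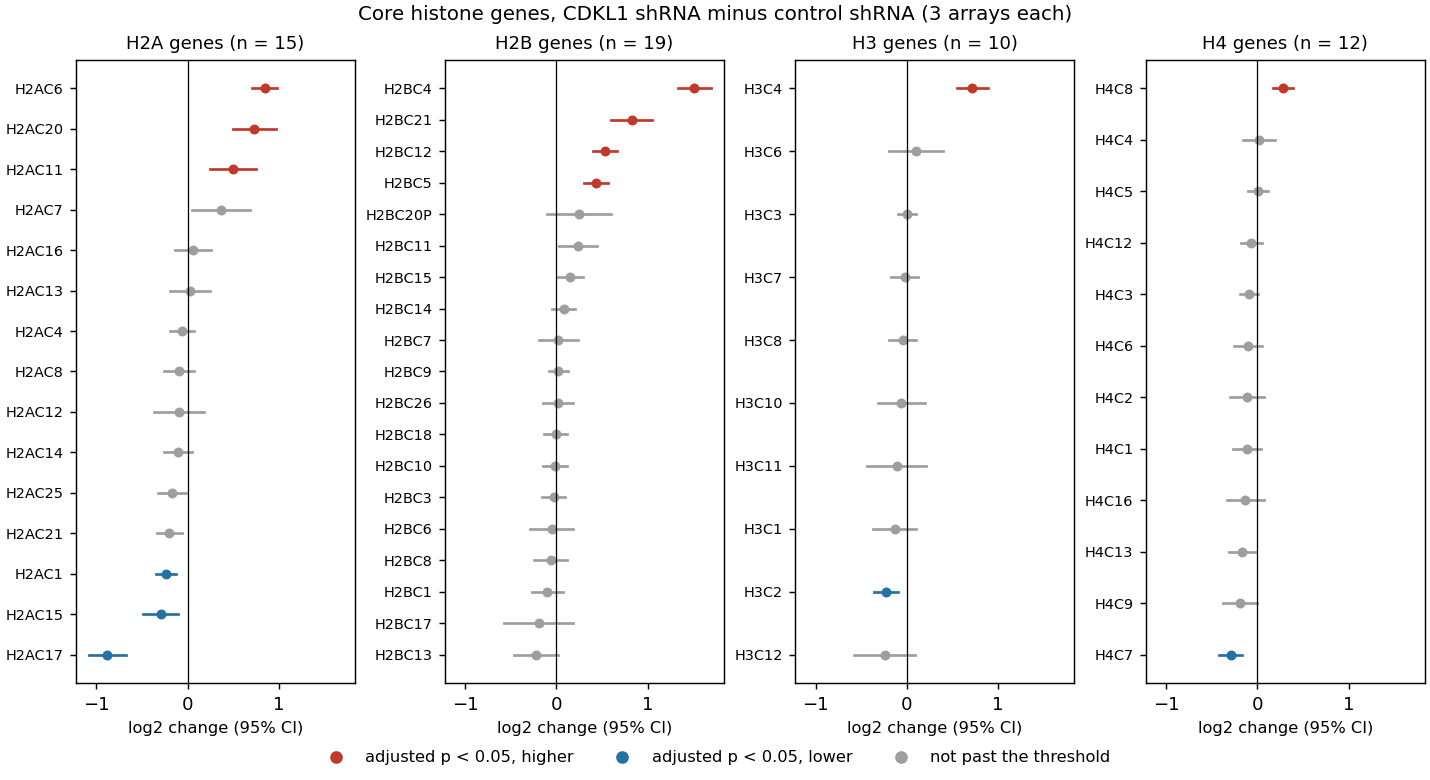
Log2 change of each of the 56 core histone genes (CDKL1 shRNA minus control shRNA, x axis) with its 95% interval from the limma fit, by histone type; red marks genes past the threshold that were higher, blue those that were lower, grey the rest. The H2B panel holds 4 higher and 0 lower genes, the H2A panel 3 of each, and the H3 and H4 panels 1 of each.

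The ACTB excess of 3' signal was higher in all 3 CDKL1 shRNA arrays, so as a covariate it overlaps with the group term. In the limma fit with it, 3 members rose (H2BC4 by 1.63, H2AC20 by 0.996 and H2AC6 by 0.989) and 0 fell, while 219 of all genes passed. At an unadjusted p under 0.05, 9 members were higher and 3 lower, beside 1303 higher and 2198 lower of all 18132 genes. All 14 called members kept their sign in that fit, and the SE of H2BC4 went from 0.08 to 0.13. The other 11 did not pass in it, H2AC17 among them at -0.91 (adjusted p = 0.0648). When single arrays were left out of the fit without the covariate, 8 to 10 members rose and 2 to 4 fell, with 2 falls after removal of control replicate 2 or of CDKL1 shRNA replicate 1, 2 or 3.

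Among the genes for H2A, which pairs with H2B in the dimers at the faces of the nucleosome, 3 of 15 rose, 3 fell and 9 did not pass. H2AC6 read 7.50, 7.54 and 7.56 in the control arrays and 8.49, 8.29 and 8.35 in the CDKL1 shRNA arrays. Its groups lay well apart, with a log2 change of 0.84 (SE 0.06, adjusted p = 0.000309), or 1.79-fold. H2AC20, of the chromosome 1 cluster, read 9.23, 9.06 and 9.01 against 10.02, 9.66 and 9.81, with CDKL1 shRNA replicate 1 the highest of the 6. This rise was 0.73 (SE 0.10, adjusted p = 0.00359), or 1.66-fold. H2AC11 read 6.53, 6.24 and 6.14 against 6.73, 6.74 and 6.95, so that control replicate 1 came closest to the other group. Its rise of 0.50 (SE 0.11, adjusted p = 0.0219) was 0.42 to 0.61 with 1 array left out and passed in only 2 of those 6 fits, those that left out control replicate 1 (0.61) or CDKL1 shRNA replicate 2 (0.53). It did not pass when control replicate 2 (0.47) or 3 (0.42) was left out, nor when CDKL1 shRNA replicate 1 (0.53) or 3 (0.43) was.

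H2AC17 showed the largest fall of the members. Its control arrays read 8.99, 9.20 and 9.31 and its CDKL1 shRNA arrays 8.20, 8.30 and 8.36, which lay entirely below. The log2 change was -0.88 (SE 0.09, adjusted p = 0.00103), so the control level was 1.84-fold higher. Both other falls among the H2A genes were small. H2AC15 read 5.22, 5.50 and 5.47 against 5.14, 5.02 and 5.15, a change of -0.29 (SE 0.08, adjusted p = 0.0496) that passed in 1 of 6 fits with 1 array left out, the fit without control replicate 1 (-0.38). H2AC1, a gene known for its expression in testis, read 4.41, 4.47 and 4.33 against 4.16, 4.16 and 4.17, levels within those of the background controls. Its change of -0.24 (SE 0.05, adjusted p = 0.0163) passed without control replicate 1 (-0.24) or control replicate 3 (-0.27) and in no other fit with 1 array left out.

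Of the H2A genes that did not pass, H2AC7 had the largest change, 0.37 (95% interval 0.05 to 0.69, adjusted p = 0.113), from 5.74, 5.61 and 5.33 to 6.18, 5.86 and 5.75. These groups did not overlap, yet control replicate 1 and CDKL1 shRNA replicate 3 nearly met, and without CDKL1 shRNA replicate 1 the change was 0.25. H2AC25 was at 7.21, 7.01 and 7.01 against 6.92, 6.90 and 6.90, a change of -0.17 with an interval of -0.32 to -0.02 (adjusted p = 0.117), and of -0.10 without control replicate 1.

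The genes for H2B held the largest single rise, that of H2BC4, with 4 of 19 higher, 0 lower and 15 that did not pass (limma; at an unadjusted p under 0.05, 6 were higher and 0 lower). H2BC4 read 5.46, 5.34 and 5.23 in control arrays and 6.85, 6.76 and 6.96 in CDKL1 shRNA arrays. The gap between the groups was far wider than the spread within them, with a log2 change of 1.51 (SE 0.08, adjusted p = 0.000118), or 2.85-fold. H2BC21 read 6.24, 6.00 and 5.88 against 6.80, 6.96 and 6.83, a change of 0.82 (SE 0.10, adjusted p = 0.00196), or 1.77-fold. H2BC12 read 11.09, 11.19 and 11.24 against 11.65, 11.71 and 11.75. Both of its groups were tight, and the change was 0.53 (SE 0.06, adjusted p = 0.00123), or 1.44-fold. H2BC5 read 8.61, 8.77 and 8.74 against 9.17, 9.16 and 9.09, a change of 0.44 (SE 0.06, adjusted p = 0.00319), or 1.35-fold. These 4 genes passed in each of the 6 fits with 1 array left out.

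H2BC15, at 7.15, 7.17 and 7.32 against 7.41, 7.39 and 7.30, had a change of 0.15 (interval 0.01 to 0.30, adjusted p = 0.139), and its groups overlapped through CDKL1 shRNA replicate 3. The pseudogene H2BC20P had a change of 0.25 with a wide interval of -0.10 to 0.60 (adjusted p = 0.315). Its control replicate 1, at 5.01, lay below the other 5 arrays at 5.40 to 5.73, and the change was 0.08 without that array and 0.39 without control replicate 2.

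The genes for H3 and H4, which together form the tetramer at the core of the nucleosome, held 1 rise and 1 fall each. H3C4 read 6.99, 7.18 and 7.24 in control arrays and 7.79, 7.84 and 7.92 in CDKL1 shRNA arrays. The groups were clearly apart, with a change of 0.72 (SE 0.07, adjusted p = 0.00117), or 1.64-fold. H4C8 read 5.92, 5.85 and 5.97 against 6.17, 6.21 and 6.19, a smaller rise of 0.28 (SE 0.05, adjusted p = 0.00837), or 1.21-fold.

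H4C7 read 6.00, 6.06 and 6.15 against 5.76, 5.74 and 5.84. Its change of -0.29 (SE 0.05, adjusted p = 0.0123) left the groups without overlap and passed in each of the 6 fits with 1 array left out. H3C2 read 4.23, 4.12 and 4.11 against 3.95, 3.97 and 3.86, within the range of the background controls. Its change of -0.23 (SE 0.05, adjusted p = 0.0296) passed in 0 of the 6 fits with 1 array left out, where it was -0.25 to -0.19.

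H4C3, at 14.26, 14.20 and 14.17 against 14.12, 14.12 and 14.10, had a change of -0.09 (interval -0.19 to 0.01, adjusted p = 0.206), and its CDKL1 shRNA arrays all lay below the control arrays. H3C8, at 6.67, 6.45 and 6.61 against 6.55, 6.53 and 6.52, had a change of -0.04 (interval -0.19 to 0.10, adjusted p = 0.693). For H3C12 it was -0.24 with an interval of -0.58 to 0.09 (adjusted p = 0.313). Its control replicate 1, at 6.86, stood above the other 5 arrays at 6.17 to 6.38, and without it the change was -0.07.

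**Figure D2:**
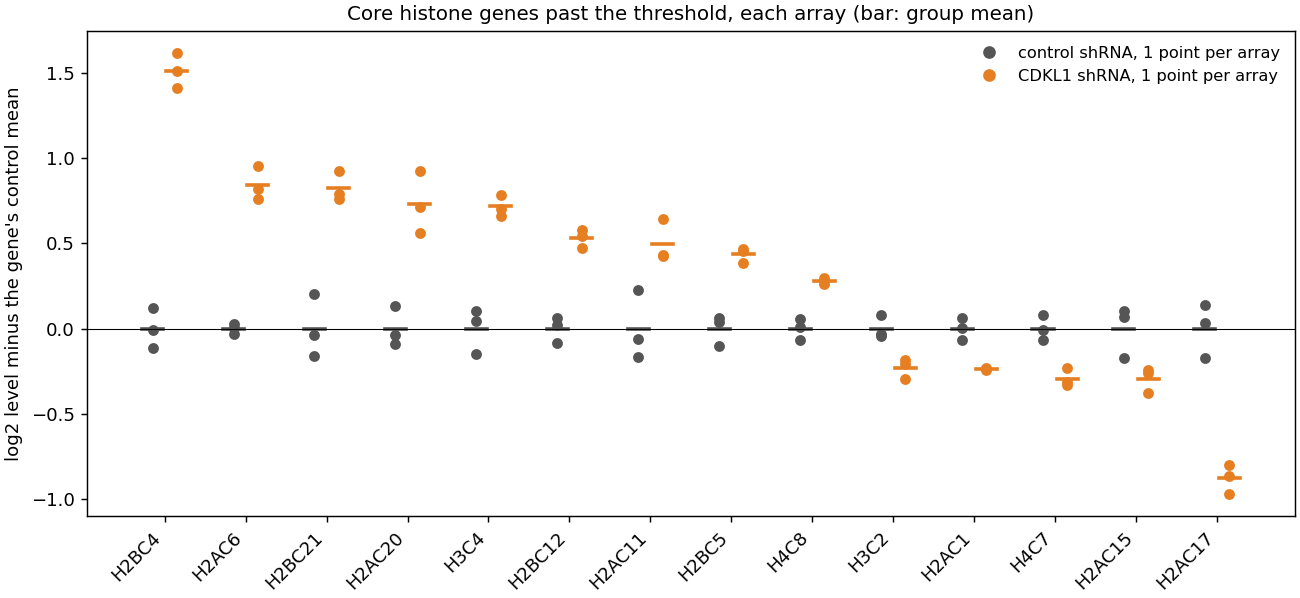
Log2 level of the 14 core histone genes past the threshold in each of the 6 arrays, shown as the distance from that gene's control mean (y axis); points are arrays, grey for control shRNA and orange for CDKL1 shRNA, and bars are group means. The groups are apart for each gene, by 1.51 for H2BC4 at the left and by -0.88 for H2AC17 at the right.

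Most members did not pass the test. Of the 42 genes that did not pass, changes ran from -0.24 to 0.37 with a median of -0.06 and a median SE of 0.07, and the 95% interval lay within a 1.5-fold change either way for 40 of them. At an unadjusted p under 0.05 there were 7 (H2AC7, H2AC21, H2AC25, H2BC11, H2BC15, H4C9 and H4C13). In all, 19 members had a mean level at or below the highest background control with 10 to 16 G or C bases (2.97 to 4.92), 17 of them among the 42. Controls with 17 to 25 G or C bases reached 5.43 to 10.74, so for GC-rich probes the background may be higher than this limit. Of the 9 members above the median gene level of 7.28, 5 rose and 1 fell, with a median change of 0.44. Those 9 members were a choice by level and carry no test of their own. The share of all genes above that level that passed is not given beside them, so no excess can be read from these counts.

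Many H2A and H2B genes lie head to head, so that a single stretch of DNA serves as promoter for both. In the RefSeq promoter table (GRCh38.p14), which held 50 of the 56 members, 11 such pairs of members were found, with 193 to 247 bases between the starts. Entries for H2BC20P, H4C3, H2AC12, H3C11, H4C1 and H3C12 were not used here. Both genes rose in 2 pairs, H2BC4 with H2AC6 and H2BC21 with H2AC20. Both fell in 0 pairs, 1 gene of the pair passed in 4, and neither passed in 5. The sign was the same in 7 of 11 pairs.

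H2AC11 rose by 0.50, while its partner H2BC11 had a change of 0.24 (interval 0.03 to 0.45, adjusted p = 0.116). That value came from 11741700_s_at, while for H2BC11 11741699_at gave -0.17 and 11741701_x_at -0.0003, and none of them passed. H2AC17 changed by -0.88, while its partner H2BC17 had a change of -0.19 (adjusted p = 0.482) at a level within the background controls. H2AC1 and H2AC15 fell, beside changes of -0.10 for H2BC1 and 0.15 for H2BC15. The remaining H2A and H2B genes that rose, H2BC5 and H2BC12, were in no pair found here. Only members with an entry were searched, so a pair with H2AC12 or with a gene outside the members could not be found. The difference between partners was not tested, because they are read by different probe sets.

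**Figure D3:**
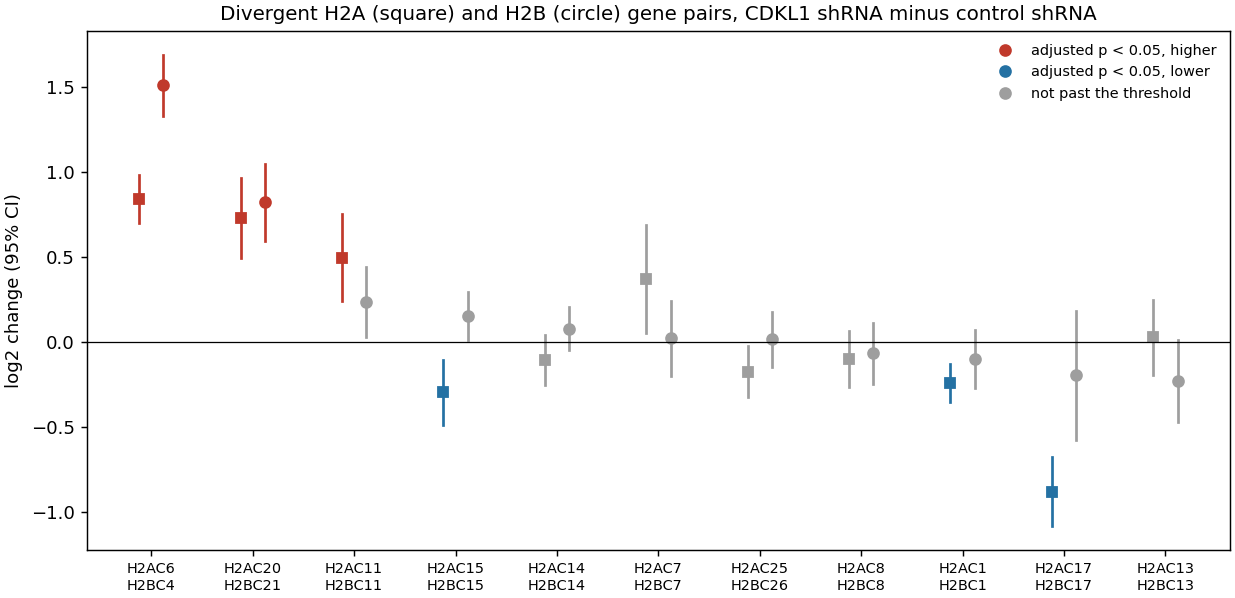
Log2 change (CDKL1 shRNA minus control shRNA, y axis) with its 95% interval for the 11 pairs of H2A (square) and H2B (circle) genes with facing starts; red and blue mark genes past the threshold that were higher or lower, grey the rest. Only in the 2 leftmost pairs did both genes pass, all 4 of them higher.

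The shared stretches of the pairs in which both genes rose, and of the pair that holds H2AC17, are given here, each restricted to the bases between the starts and thus outside both transcripts. Beside them stand 250 bases before the start of H4C8, the H4 gene that rose, H4C7, the H4 gene that fell, and H3C2, the H3 gene that fell. Sequences are from RefSeq, GRCh38.p14, written 5′ to 3′ in the direction of the first gene named. Capitals mark the octamer ATTTGCAT, known as the site of the factor OCT1 in H2B promoters, the CCAAT box and the TATA box TATAAA, each on either strand.
H2BC4 and H2AC6, chr6:26123927-26124171, minus strand: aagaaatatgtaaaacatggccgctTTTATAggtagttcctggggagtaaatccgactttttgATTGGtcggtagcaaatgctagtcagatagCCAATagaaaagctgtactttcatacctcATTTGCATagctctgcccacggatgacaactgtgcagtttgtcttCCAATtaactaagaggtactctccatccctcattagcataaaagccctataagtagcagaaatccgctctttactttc
H2BC21 and H2AC20, chr1:149886683-149886917, minus strand: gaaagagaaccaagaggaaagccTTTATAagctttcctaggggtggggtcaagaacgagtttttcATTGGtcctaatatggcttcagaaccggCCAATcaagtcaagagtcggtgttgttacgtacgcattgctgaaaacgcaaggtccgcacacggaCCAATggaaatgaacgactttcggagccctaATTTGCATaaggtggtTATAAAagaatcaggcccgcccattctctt
H2BC17 and H2AC17, chr6:27893186-27893424, plus strand: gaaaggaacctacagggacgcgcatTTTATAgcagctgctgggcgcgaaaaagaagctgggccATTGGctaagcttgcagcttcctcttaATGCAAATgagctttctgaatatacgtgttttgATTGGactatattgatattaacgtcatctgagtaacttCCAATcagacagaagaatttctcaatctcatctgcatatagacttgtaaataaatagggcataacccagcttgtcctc
H4C8, chr6:26285535-26285784, minus strand: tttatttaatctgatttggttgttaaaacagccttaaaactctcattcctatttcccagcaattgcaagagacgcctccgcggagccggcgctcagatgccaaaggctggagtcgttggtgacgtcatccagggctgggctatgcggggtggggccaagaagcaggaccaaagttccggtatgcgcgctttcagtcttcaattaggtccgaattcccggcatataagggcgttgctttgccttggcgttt
H4C7, chr6:26246997-26247246, minus strand: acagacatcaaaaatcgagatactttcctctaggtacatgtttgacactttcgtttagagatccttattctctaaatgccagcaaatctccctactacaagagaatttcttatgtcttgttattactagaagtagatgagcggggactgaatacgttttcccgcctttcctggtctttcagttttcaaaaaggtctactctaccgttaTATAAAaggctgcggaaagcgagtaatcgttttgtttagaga
H3C2, chr6:26032100-26032349, minus strand: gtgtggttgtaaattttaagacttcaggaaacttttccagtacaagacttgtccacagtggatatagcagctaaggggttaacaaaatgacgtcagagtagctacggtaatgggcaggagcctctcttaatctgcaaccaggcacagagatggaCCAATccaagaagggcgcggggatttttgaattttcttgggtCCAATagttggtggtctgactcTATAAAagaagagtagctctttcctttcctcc

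All 3 shared stretches held 1 octamer and 3 CCAAT boxes, whether the pair rose or held a gene that fell. The stretch of H4C8 held no exact match to the 3 motifs, that of H4C7 held 1 TATA box, and that of H3C2 held 2 CCAAT boxes and 1 TATA box. Only exact letters were searched, so a variant such as the tataag near the end of the H4C8 stretch was not counted. Over windows of 300 bases, from 250 before to 50 after the first start listed for a gene, the octamer occurred in 26 of 50 members (52.0%) and in 1.80% of 27305 genes with an entry. It was found in 14 of 18 H2B, 11 of 14 H2A, 1 of 8 H3 and 0 of 10 H4 genes. That H3 gene was H3C4, whose first listed start is the one it shares with H2AC7. Members that rose had it in 7 of 9 windows, those that fell in 2 of 5 and the others in 17 of 36. Within the H2B genes it was in 3 of 4 that rose and 11 of 14 that did not pass.

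The CCAAT box was in 43 of 50 members (86.0%, beside 35.7% of all genes), with 8 of 9, 4 of 5 and 31 of 36 in the same order. For the TATA box the count was 33 of 50 (66.0%, beside 12% of all genes), with 7 of 9, 4 of 5 and 22 of 36. Windows of partner genes overlap, so a match between them counts for both genes, and a TATAAA match can share bases with its reverse complement TTTATA.

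By position, the members with an entry fell into runs of neighbouring histone genes separated by more than 500000 bases. The run on chromosome 6 from H2AC1 to H4C8 held 27 members, of which 5 rose and 3 fell, with a median change of -0.03. The run from H2BC11 to H2BC12 held 4, of which H2AC11 and H2BC12 rose, and the run from H2BC13 to H2BC17 held 12, of which 0 rose and 2 fell (H2AC15 and H2AC17), with a median of -0.09. On chromosome 1, H2BC21 and H2AC20 rose among 4 members from H2BC18 to H2AC21. These runs were not compared by a test.

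Where a gene had several probe sets, their signs did not always match. Of 29 members with 2 or more, 17 had the same sign in all and 12 did not. Among the 8 called genes with 2 or more, 4 had the same sign in all. A sign says little where changes are near 0, as for H2BC26 (-0.05 to 0.02), which was not called. In a fit over all probe sets, 12 of the 99 were higher and 5 lower, beside 7.38% higher and 5.24% lower over all probe sets. H2BC5 rose in 3 of 3 probe sets, by 0.36 to 0.73. H2BC4 rose in both, by 1.51 through 11759760_s_at and by 0.94 through 11741704_x_at. H2AC17 fell in both, with -0.88 through 11740125_x_at and -0.91 through 11740124_at, which carries no suffix for shared probes.

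Other called genes rested on a single probe set. H2BC12 rose through 11717099_at, while 11761490_at, at a mean level of 5.41, gave -0.02. H2BC21 rose through 11717090_a_at, and its other 2 probe sets, which held identical values in all 6 arrays and so are a single measurement, gave -0.11 at a mean level of 4.52. With the mean of all probe sets the rises of H2BC12 and H2BC21 were 0.25 and 0.20 and passed. For H2AC11 the second probe set gave -0.08, and the gene did not pass with the mean of both. For H2AC15 the others gave 0.19 and -0.11, at mean levels of 3.50 and 4.91 within the background controls. H2AC15 did not pass in the fit over all probe sets. H2AC20 also rose in its second probe set, by 0.43 at a mean level of 3.93, within the background controls. That rise narrowly missed the threshold (limma over all probe sets, adjusted p = 0.0511). The remaining 6 called genes (H2AC6, H3C4, H4C8, H4C7, H2AC1 and H3C2) had 1 probe set each.

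Of the 48 probe sets with the suffix _s_at or _x_at, 5 were higher and 1 lower, and of the 51 others 7 and 4. Their medians were -0.05 and -0.06. When these suffixes were left out, 43 members remained, of which 6 rose and 4 fell. H2BC4, H2AC6 and H4C8 were not among them, since every probe set they have carries such a suffix, so their signal may include that of other copies.

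**Figure D4:**
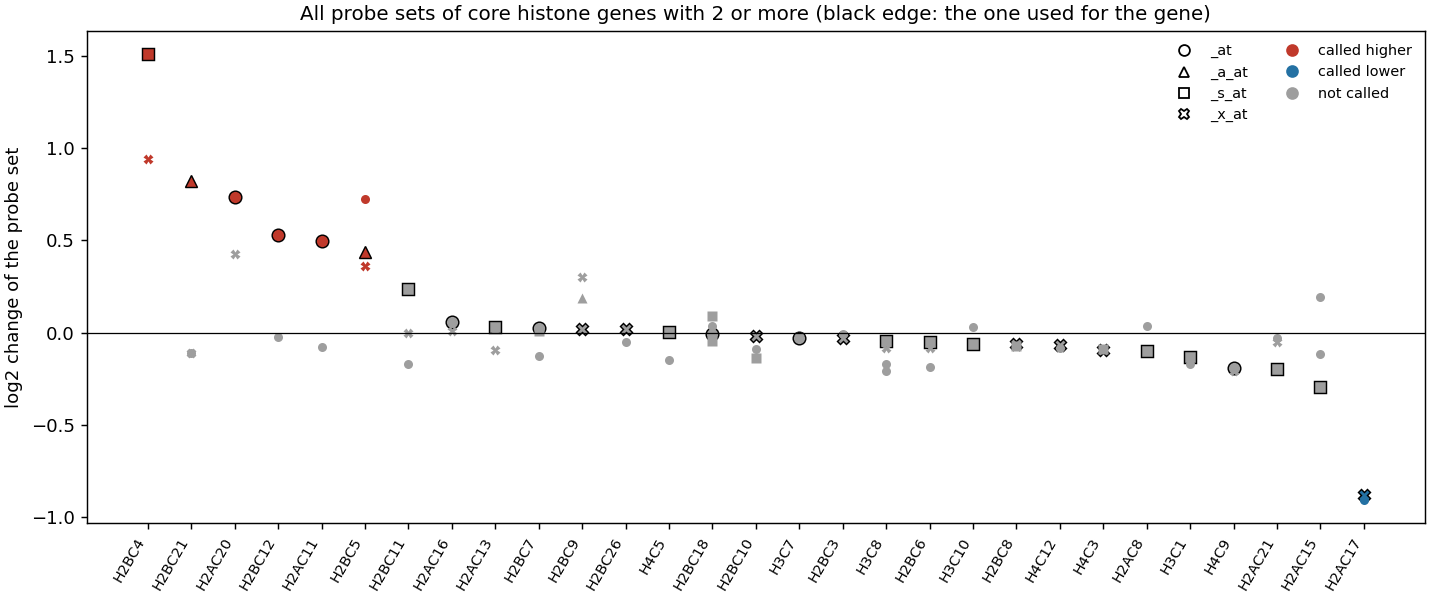
Log2 change (CDKL1 shRNA minus control shRNA, y axis) of every probe set of the 29 core histone genes with 2 or more, by the suffix of the probe set (shape); a black edge marks the probe set that represents the gene, red and blue those past the threshold over all probe sets. H2BC4, H2BC5 and H2AC17 moved alike in all their probe sets, whereas H2BC12, H2BC21 and H2AC11 have others near 0.

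In the 5 lists of other histone and histone supply genes, most of the genes that passed the test fell. Over all genes 8.97% rose and 7.79% fell. Falls were 23.8% of the list of histone mRNA synthesis and processing, where rises were 14.3%. They were 27.3% of variants, 33.3% of linker histones and 18.2% of DNA synthesis genes. For chaperones the falls were 9.09%, near the share of all genes. Among genes of histone mRNA synthesis and processing 3 of 21 measured rose and 5 fell, with a median log2 change of -0.05. CDK2, whose kinase activates the histone gene coactivator NPAT in S phase, had a change of -0.53 (SE 0.04, adjusted p = 0.000563), and its partner CCNE1 had a change of -0.18 (adjusted p = 0.0297). SYMPK, a scaffold of the complex that cleaves histone mRNA, had a change of -0.35 (adjusted p = 0.00618). LSM1, of the complex that acts in decay of histone mRNA, rose by 0.22 (adjusted p = 0.0155). UPF1, a helicase of histone mRNA decay, had a change of -0.27 (adjusted p = 0.0214). The other 3 that passed were ZNF473 and TUT7, which rose by 0.19 and 0.20, and ERI1, at -0.17. With any 1 of the 6 arrays left out, 0 or 1 genes of this list rose and 2 or 3 fell.

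Of 22 histone chaperone genes 0 rose and 2 fell, HIRA at -0.54 (SE 0.07, adjusted p = 0.00316), which deposits an H3 replacement variant, and NASP at -0.20, a carrier of soluble H3 and H4. At an unadjusted p under 0.05 the limma fit had 0 higher and 7 lower, beside 2721 higher and 2686 lower of all 18132 genes. Only 1 fell without control replicate 2 or 3, or without CDKL1 shRNA replicate 1 or 2. Their median was -0.06. Among 11 genes of histone variants and other core histones 0 rose and 3 fell, with a median of -0.07. These were MACROH2A2 (-0.31), the centromeric H3 gene CENPA (-0.21) and H2AZ2 (-0.15), and 1 fell when control replicate 3 or CDKL1 shRNA replicate 3 was left out.

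Of 9 linker histone genes, whose proteins bind the nucleosome where DNA enters and leaves, 0 rose and 3 fell (H1-4 at -2.17, H1-2 at -0.73 and H1-10 at -0.41), the change of H1-4 being larger than that of any core histone gene, with a median of -0.20. In the same arrays 4 of 22 genes of DNA synthesis in S phase fell and 0 rose, with a median of -0.09, with TYMS at -0.30, GINS1 at -0.22, GINS2 at -0.21 and MCM2 at -0.17. The number of falls was 1 when control replicate 2 or 3, or CDKL1 shRNA replicate 1 or 3, was left out, 2 without CDKL1 shRNA replicate 2 or with array medians subtracted, 8 after a further quantile normalisation and 10 with an intensity trend. The part of S phase genes in the histone changes was not tested.

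**Figure D5:**
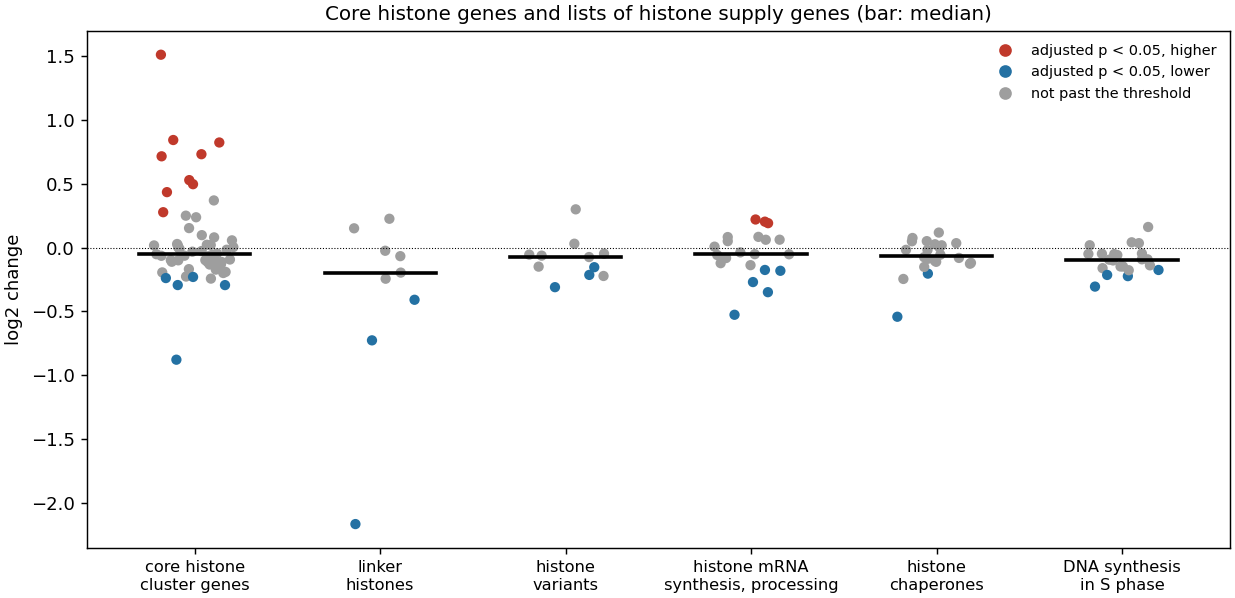
Log2 change (CDKL1 shRNA minus control shRNA, y axis) of the 56 core histone genes and of 5 lists of other histone supply genes; points are genes, red and blue past the threshold, grey not, and bars are medians. The medians lie between -0.20 and -0.05. In the 5 lists the genes that rose and passed were 3 of histone mRNA synthesis and processing, by 0.19 to 0.22.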

How the data were processed

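Total RNA of 6 DLD1 samples was extracted with TRIzol and hybridised to Affymetrix arrays, per the labels' protocols. The deposited values are log2 expression values of 49395 probe sets, which the authors made with RMA, per the submitters' processing notes; the sources used here do not give its version or settings, or the build behind the probes. Quantile normalisation within RMA assumes like distributions in all arrays, and fold changes of dim probe sets can be understated.

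Groups came from the sample titles. Probe sets were named through the platform annotation (44988 with 1 symbol, 1832 with several, 2473 without; 102 controls left out). Group was the sole term of a linear model over 18132 genes, fitted with limma 3.58.1 in R 4.3.3 (eBayes, two-sided, Benjamini-Hochberg, threshold 0.05), after the script was tested on simulated data. Tables and figures used Python 3.11.15 and pandas 2.3.3. Single values were compared by exact permutation. Background was read from control probe sets. Promoter windows came from RefSeq, GRCh38.p14.

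Genes named with values were CDKL1, every member past the threshold, the brightest member of each type and the 3 largest changes among those that did not pass, and up to 4 genes with the smallest p of each list; CCNE1, ERI1, TUT7 and ZNF473, partner genes and members with several probe sets were named after their values were seen. The members, lists and alternatives were chosen with earlier results of these data known. Lists were matched by symbol. No probe set of 1 symbol carried the listed symbol for 2 of 23 genes of histone mRNA synthesis and 2 of 13 variants. The same held for 1 of 10 linker histones and 1 of 6 leukocyte markers. Such a gene may be annotated under another symbol, so it may still have been measured. No label says whether samples of a group came from separate infections, so the p-values reflect only how far these samples scatter, possibly for technical reasons, and the number of arrays limits the precision. Every sample column of the table was used.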

Additional observations from a re-analysis of the deposited data

How the results depend on the processing

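With 1 array left out, 8 to 10 core histone genes rose and 2 to 4 fell, and 1633 to 2399 of all genes passed. The CDKL1 change was -0.29 to -0.12 and passed without control replicate 3 only. Titles number the samples of both groups 1 to 3, but deviations of same-numbered arrays from their group means correlated at -0.03, -0.12 and 0.07, so the numbers were not taken as pairs; with the replicate block 1803 of all genes passed and 9 members rose and 2 fell. The ACTB covariate left 219 of all genes, 3 members higher, 0 lower, and 3 member probe sets of 17. Chosen after seeing the data, the same covariate without CDKL1 shRNA replicate 2 left 0 of all genes and 0 members in either direction by limma (658 genes and 5 members at an unadjusted p under 0.05), with a member median of 0.12 and signs turned for H2AC11 (-0.31), H2BC20P (-0.065) and H3C8 (0.34); it has few residual degrees of freedom. H3C8 also turned sign without control replicate 1, within -0.11 to 0.00263 over the arrays left out. Among genes above the median level 9 members remained, with 1 fall, 8 without overlap of the groups and a median of 0.44, again without the share over all such genes. Without _s_at and _x_at probe sets, which left 43 members, 13 did not overlap. A further quantile normalisation, median centring, the mean of all probe sets, an intensity trend and the fit over all probe sets gave 8 to 10 rises and 4 falls. Calls in the other lists moved more: for histone mRNA synthesis and processing, DNA synthesis, chaperones, variants and linker histones the falls were 3, 2, 1, 1 and 3 with the replicate block and 0, 0, 0, 0 and 1 with the ACTB covariate, while 6 chaperone and 10 DNA synthesis genes fell with an intensity trend. Without _s_at and _x_at probe sets 1 linker histone gene fell. The causes were not tested beyond the smaller sets of arrays or genes. Signal over background limits the 19 dimmest members.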
